A study of Homo sapiens with 6 samples.

Results

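The genes described here encode the human proteasome. They were chosen by name, as every gene called PSMA, PSMB, PSMC, PSMD, PSME, PSMF or PSMG with a number, leaving out the immunoproteasome subunits PSMB8, PSMB9 and PSMB10. Of the 19491 genes listed, 43 met this rule. They comprise 14 subunits of the 20S core (7 PSMA and 7 PSMB genes), 24 regulatory subunits (6 PSMC, 14 PSMD and 4 PSME genes), the inhibitor PSMF1 and 4 assembly factors of the core (PSMG1 to PSMG4). All 43 had enough reads to be compared in both comparisons.

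The proteasome is the protease that degrades ubiquitin-tagged proteins and returns their amino acids to the cell. Its barrel-shaped core is built from rings of alpha subunits, which form the gate, and rings of beta subunits, of which PSMB5, PSMB6 and PSMB7 carry the cutting sites. A cap, the 19S particle, recognises the tag, removes it and feeds the unfolded substrate into the barrel through a ring of ATPases. Other caps, the PSME activators, open the gate without recognising ubiquitin. Transcription of subunit genes is known to be driven together by the factor NFE2L1 (NRF1), which acts at antioxidant response elements in their promoters.

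PC-3, an established prostate cancer cell line, was kept in serum-containing RPMI medium with no inhibitor (control), with 1 mM GPNA or with 10 mM BenSer. Exposure lasted 48 h, and both agents inhibit the glutamine transporter ASCT2 (SLC1A5). Stranded total RNA libraries were sequenced, and each gene was given in CPM, its reads scaled to the total of the library. There were 2 columns per group whose numbers match a label, and nothing in the labels says that they came from separate cultures.

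The library totals, of which 51.6% to 52.7% were reads on listed genes, ran from 23077986 in a control column to 32178154 in a BenSer column. Within a group, columns 1 and 2 were nearly as close as repeated sampling of 1 library would make them (chi-square per degree of freedom 1.05 to 1.06, against 5.50 and 20.7 between control and treated columns), so they were counted as 1 sample. The study's methods describe the columns of a group as replicates. Each group is thus 1 sample, no difference below has a replicate check, and no p-value for a treatment is given. The epithelial genes KRT8, KRT18 and EPCAM were present in every column at 248 to 292, 91.5 to 109 and 91.2 to 100 CPM.

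Levels were set in order per kilobase of transcript, since a long transcript collects more reads. In the control, PSMD2, the large scaffold subunit of the 19S base, had the highest level at 109 CPM per kb. It was followed by the core subunits PSMB4 and PSMA3 at 92.7 and 83.0 CPM per kb. The median was 34.3 CPM per kb over the 14 core subunits, 31.8 over the 24 regulatory subunits and 15.5 over the 4 PSMG assembly factors. The 4 lowest were PSMA6 (5.58), PSMA1 (5.28), PSMD9 (1.78) and PSMA2 (1.14 CPM per kb).

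These low values go with shared exons. In the GENCODE annotation lifted to GRCh37, a read-through gene on the same strand covers 100% of the PSMA2 transcript, 81.4% of PSMA6, 67.0% of PSMA1 and 28.8% of PSMD9, and how the counting treated such exons is not given in the sources used here. Their part in the low levels was not tested. PSMC1 and PSMD7 overlap a gene on the opposite strand over 83.2% and 51.6% of their transcripts. Whether the counting used the strand is not given either, so for these genes with an antisense partner, reads of that partner cannot be told apart.

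**Figure D1:**
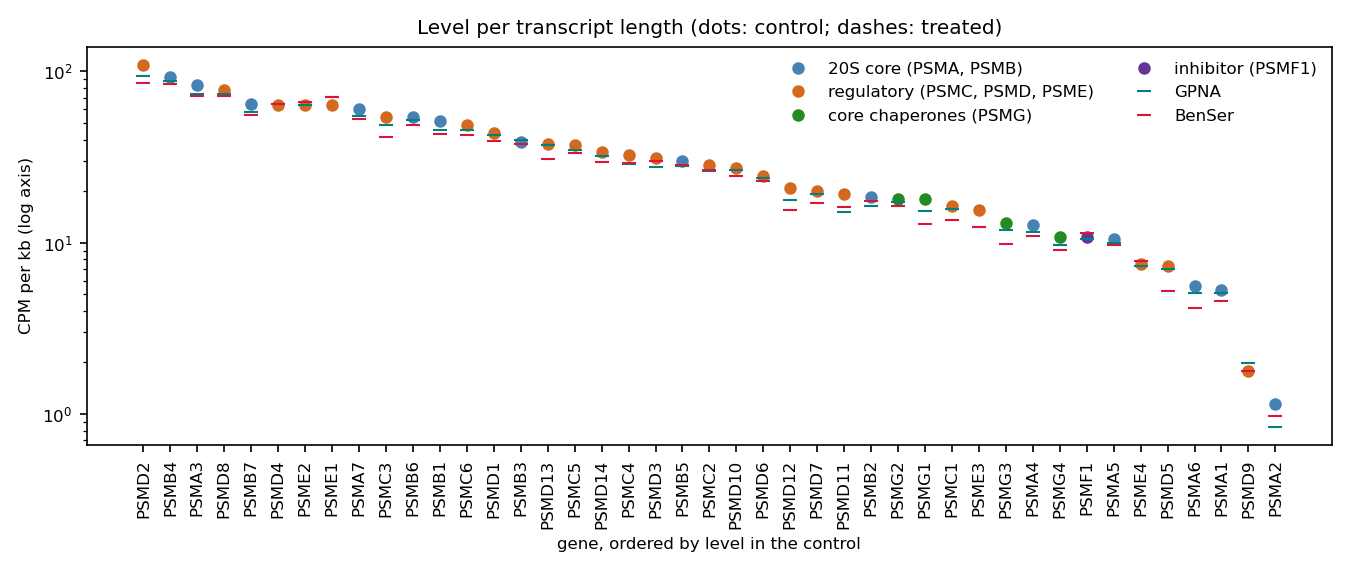
Mean level of each of the 43 genes in CPM per kb of transcript (log axis), ordered by the control level; dots show the control and dashes the treated samples. PSMD2 stands at the top at 109 CPM per kb in the control, and PSMD9 and PSMA2 lie lowest at 1.78 and 1.14.

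The first question was whether proteasome genes were at other levels with the inhibitors than without. Most were somewhat lower with each. Differences are given as treated minus control in log2 of the mean CPM plus 1, a scale that understates the change of low genes, and folds are on the same scale. The 95% intervals are exact Clopper-Pearson intervals from the reads of both columns together, and they reflect the error of counting alone.

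With GPNA, 39 of the 43 genes lay below the control, where 56.7% of the 18828 genes tested did. The median difference was -0.10 (range -0.33 to 0.16), and that of all genes tested was -0.028. Over genes at 10 CPM or more, where the medians lie closer together, these were -0.09 and -0.058. Both GPNA columns lay below both control columns for 28 proteasome genes (65.1%) and above them for 1, the activator subunit PSME1. Over all genes the shares were 34.4% and 22.4%. The counting interval lay below 0 for 20 proteasome genes (46.5%) and above 0 for 1, again PSME1, against 20.1% and 9.78% of all genes.

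An interval is narrower for a well-expressed gene, so the shares were also taken over genes at 10 CPM or more. For all genes, the shares below the control and with separate columns were not taken on that base with either inhibitor. They can also vary with the reads of a gene. There, 20 of 38 proteasome genes (52.6%) had an interval below 0 and 1 above, against 37.6% and 13.1% of 8081 genes. The differences were small. Genes were counted past a threshold of 0.322 on the log2 scale and past 1.5-fold. Only the lid subunit PSMD11 lay 0.322 or more below the control, none lay as far above it, and none differed by 1.5-fold. Among all genes, 2.74% lay at least 0.322 below and 2.86% above (2.34% and 1.67% at 10 CPM or more), and 0.0637% and 0.34% were at least 1.5-fold lower and higher. At the 0.322 threshold, the proteasome share of 2.33% was near that of all genes.

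With BenSer, 37 of the 43 genes lay below the control, where 55.4% of the 18976 genes tested did. The median difference was -0.16 (range -0.48 to 0.16), beside -0.028 over all genes, and at 10 CPM or more the medians were -0.16 and -0.042. For 34 proteasome genes (79.1%) both BenSer columns lay below both control columns, and for 4 they lay above, where 37.5% and 28.5% of all genes did. The counting interval lay below 0 for 32 genes (74.4%) and above 0 for PSME1 and the inhibitor PSMF1, against 25.8% and 18.2% of all genes. Over genes at 10 CPM or more, it lay below 0 for 30 of 38 proteasome genes (78.9%) and above for 2, beside 40.9% and 28.4% of 8206 genes.

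Fewer genes passed the threshold of 0.322. With BenSer, 7 proteasome genes lay at least that far below the control: PSMD5, PSMG1, PSMD12, PSMG3, PSMC3, PSMA6 and PSMD2. PSME3, at -0.320, fell just short. None lay 0.322 or more above it, and none differed by 1.5-fold. Over all genes, 10.3% lay 0.322 or more below and 7.36% above, and 1.58% and 1.96% were 1.5-fold lower and higher. At 10 CPM or more, 6 of 38 proteasome genes (15.8%) and 13.9% of all genes lay 0.322 or more below the control, which are near each other, while 8.8% of all genes lay as far above.

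Another scaling gave medians closer to 0 and fewer intervals below 0. Under TMM scaling, which sets the bulk of genes near no change, 35 proteasome genes with GPNA and 36 with BenSer lay below the control, against 49.4% and 49.6% of all genes, and their medians were -0.06 and -0.12. The counting interval then lay below and above 0 for 16 and 1 proteasome genes with GPNA and for 27 and 5 with BenSer. The matching shares of all genes were 14.6% and 13.7% with GPNA and 21.4% and 22.3% with BenSer. RNA here comes from whole cultures, so fewer cells with a high level and less of these transcripts per cell cannot be told apart.

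**Figure D2:**
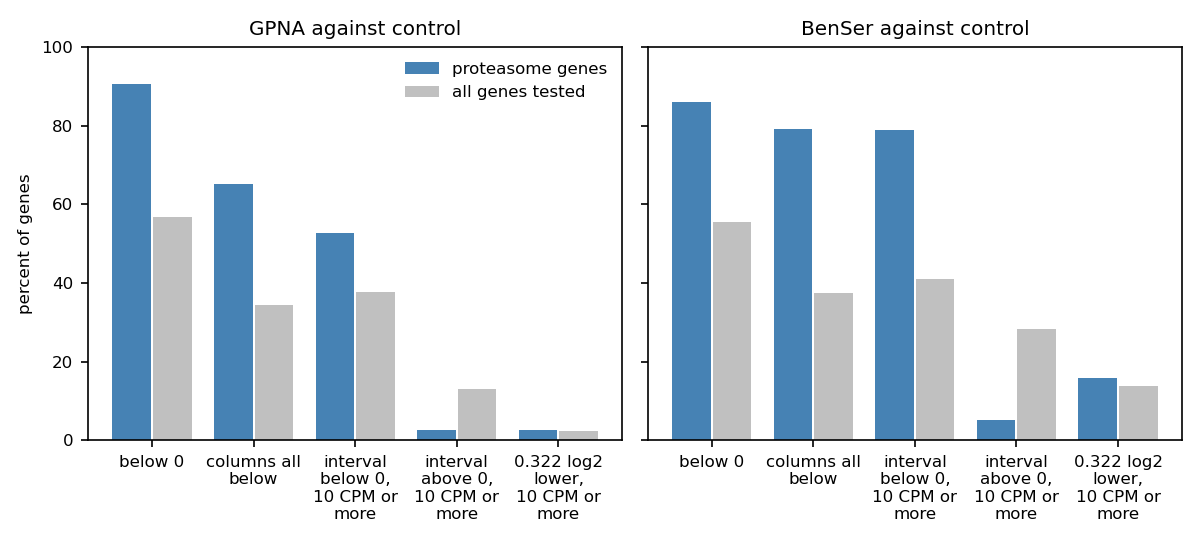
Percent of proteasome genes (blue) and of all genes tested (grey) that lay below the control, had both treated columns below both control columns, had a 95% counting interval below or above 0, or lay at least 0.322 below the control on the log2 scale; the last 3 pairs of bars cover genes at 10 CPM or more. The blue bars exceed the grey for the first 3 measures with each inhibitor, and at the 0.322 threshold they are close together, 15.8% and 13.9% with BenSer.

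Both comparisons use the same control columns, and the doses differ, so values of GPNA and BenSer are set side by side without a test of their difference. Chance deviations of the control columns enter both, so agreement between the comparisons is not given as a result. The genes above the control were PSME1, PSMD9, PSMB3 and PSMD4 with GPNA, and PSME1, PSMF1, PSME4, PSME2, PSMD4 and PSMD9 with BenSer.

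**Figure D3:**
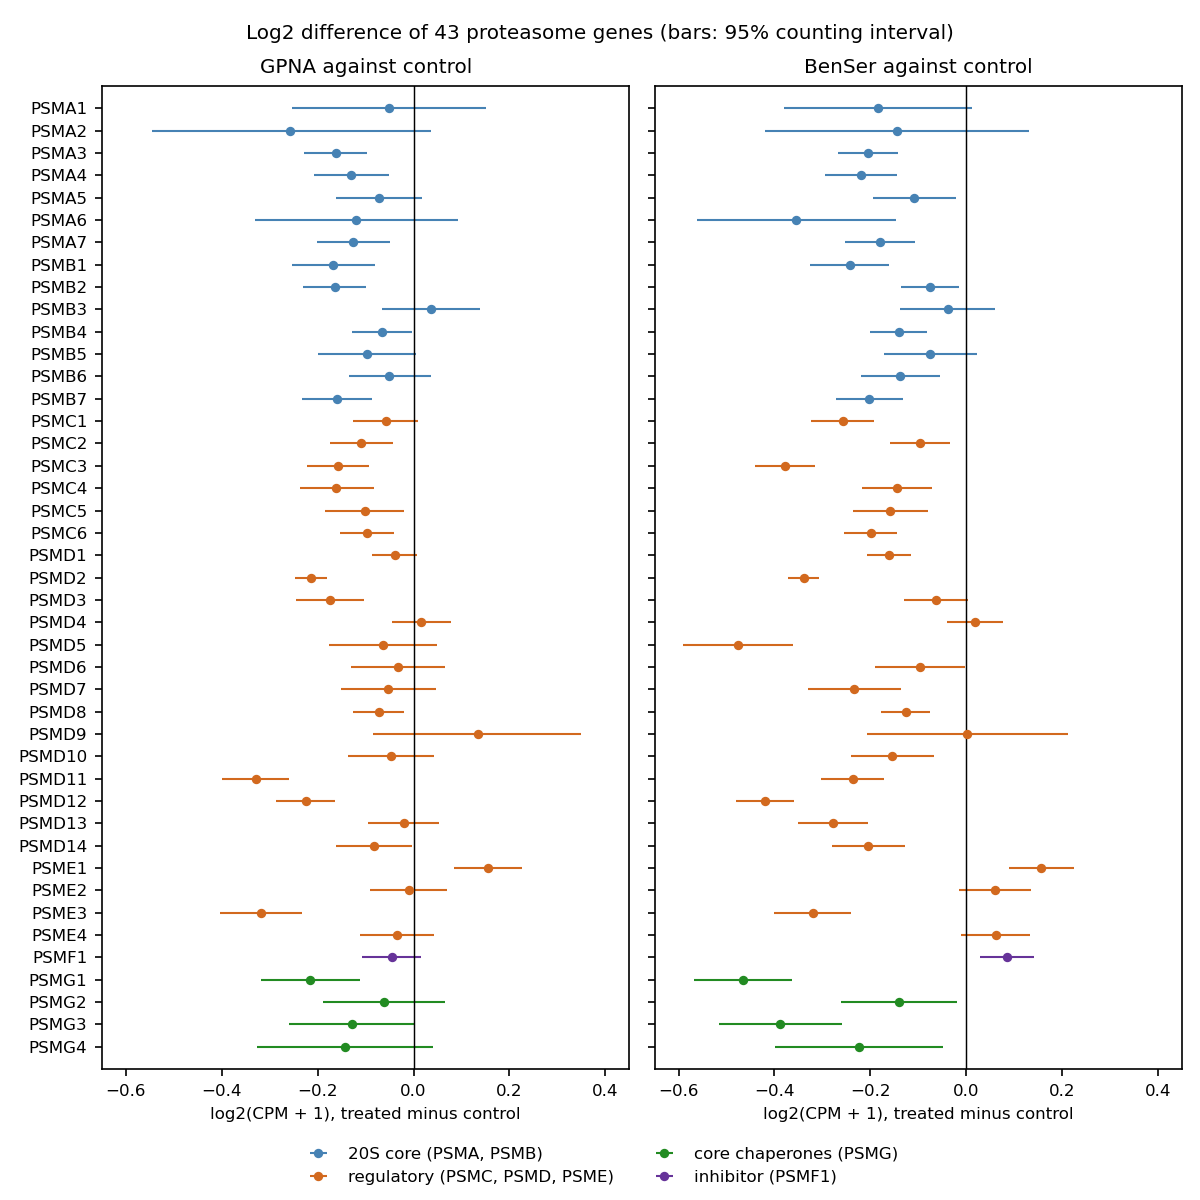
Difference of each of the 43 genes from the control in log2(CPM + 1), with GPNA on the left and BenSer on the right; points are the mean of the columns, bars the 95% counting interval, and colours the class of subunit. Most points lie left of 0 on each side, PSMD11 lies lowest with GPNA at -0.33 and PSMD5 with BenSer at -0.48, and PSME1 lies highest on both sides at 0.16.

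The next question was whether core and regulatory subunits differed. Added up, the 14 core subunits had 627 CPM in the control, 578 under GPNA and 562 under BenSer. The differences from the control were -0.12 (95% counting interval -0.14 to -0.094) and -0.16 (-0.18 to -0.14). The 24 regulatory subunits summed to 1806 CPM in the control, 1671 with GPNA (-0.11, -0.13 to -0.098) and 1582 with BenSer (-0.19, -0.20 to -0.18). Both sums were thus lower with each inhibitor.

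Subtracting the core difference from the regulatory one left 0.0054 with GPNA (-0.022 to 0.032) and -0.032 with BenSer (-0.058 to -0.0059), with intervals here and below from the normal approximation of the log of summed reads. Without PSMD2 the BenSer value was -0.0020 (-0.029 to 0.025) and the GPNA value 0.026 (-0.0015 to 0.054). No other single gene was left out of these sums, so whether the BenSer value depends on PSMD2 more than on other genes was not tested. By single genes, the median was -0.12 for core and -0.07 for regulatory subunits with GPNA, and -0.16 for each class with BenSer. Under TMM scaling the GPNA medians were -0.09 and -0.03, where the regulatory median lies closer to 0 than in the deposited scale.

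Sums were also taken within the regulatory class, after the values had been seen. They describe 1 sample per group, and the activators in them run both ways. The 4 PSME activator genes together had 216 CPM in the control, 211 under GPNA and 217 under BenSer, and relative to the core their sum was higher by 0.087 with GPNA (0.041 to 0.13) and 0.17 with BenSer (0.13 to 0.21). The 19S sum minus the core gave -0.062 with BenSer (-0.088 to -0.035), or -0.034 without PSMD2 (-0.061 to -0.0062). With GPNA the 19S and core sums differed by -0.0060 (-0.034 to 0.022), or 0.016 without PSMD2 (-0.013 to 0.044).

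Among the core genes, the alpha subunits had a median difference of -0.13 with GPNA and -0.18 with BenSer, and all 7 lay below the control in each comparison, where 56.7% and 55.4% of all genes did. Summed alpha levels were 247 and 246 CPM in the control columns, 225 and 225 under GPNA and 214 and 217 under BenSer. No treated column reached a control column. PSMA3, one of the gate-forming subunits, was at 79.7 and 78.8 CPM in the control, 70.0 and 71.3 under GPNA and 66.7 and 70.7 under BenSer. The differences were -0.16 (-0.23 to -0.097) and -0.20 (-0.27 to -0.14).

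A pair of low alpha genes need their read numbers beside them. PSMA2 had 1.89 and 1.39 CPM in the control, 1.28 and 1.14 under GPNA and 1.34 and 1.44 under BenSer, from 76, 62 and 89 reads. Its GPNA difference of -0.26 (-0.55 to 0.037) was the third most negative, but its interval includes 0. That difference was -0.11 without column 1 of the control, -0.39 without column 2 and -0.41 with a pseudocount of 0.1. PSMA6 had 4.95 and 6.46 CPM in the control, 5.31 and 5.03 under GPNA and 4.04 and 4.45 under BenSer, from 264, 265 and 272 reads. The PSMA6 difference was -0.12 with GPNA (-0.33 to 0.093), where the columns lay between those of the control. With BenSer it was -0.35 (-0.56 to -0.15). On the log2(CPM + 1) scale, its control columns lay farther apart than those of the other proteasome genes.

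The beta subunits had medians of -0.10 with GPNA and -0.14 with BenSer. PSMB5, the chymotrypsin-like subunit and main target of bortezomib, was at 32.3 and 30.2 CPM in the control, 29.1 and 29.3 under GPNA and 31.0 and 28.3 under BenSer. With BenSer the columns overlapped those of the control. Its differences of -0.10 (-0.20 to 0.0047) and -0.07 (-0.17 to 0.022) both have intervals that include 0, and with single columns left out the BenSer value ran from -0.14 to -0.01. The GPNA value was -0.05 without column 1 of the control.

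PSMB6, the caspase-like subunit, was at 44.9 and 43.9 CPM in the control, 43.9 and 41.8 under GPNA and 39.9 and 40.6 under BenSer. Its differences were -0.05 with GPNA (-0.14 to 0.035), where a treated and a control column nearly met, and -0.14 with BenSer (-0.22 to -0.055), where the columns stood apart. PSMB7, the trypsin-like subunit, had 61.7 and 65.3 CPM in the control, 57.2 and 56.2 under GPNA and 57.2 and 52.8 under BenSer. It was the lowest of the 3 relative to its control, at -0.16 (-0.23 to -0.086) and -0.20 (-0.27 to -0.13), and no treated column reached a control column.

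PSMB3, a structural beta subunit, was the only core gene above the control in either comparison. Its levels were 30.6 and 28.4 CPM in the control, 30.2 and 30.4 under GPNA and 28.5 and 28.9 under BenSer. All columns overlapped, with a GPNA difference of 0.04 (-0.066 to 0.14) and a BenSer difference of -0.04 (-0.14 to 0.059). The GPNA value was -0.01 without column 2 of the control, 0.09 without column 1 and 0.08 with TMM scaling.

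In the 19S base, the 6 ATPases (PSMC1 to PSMC6), which unfold the substrate, had medians of -0.11 with GPNA and -0.18 with BenSer. The counting interval lay below 0 for 5 of them with GPNA and for all 6 with BenSer, beside 37.6% and 40.9% of all genes at 10 CPM or more. PSMC3 was the lowest with BenSer, at 81.8 and 84.6 CPM in the control, 74.2 and 74.7 under GPNA and 63.9 and 63.7 under BenSer. The groups did not overlap, and the differences were -0.16 (-0.22 to -0.094) and -0.38 (-0.44 to -0.31). PSMC3, like PSMD2, PSMA3, PSMA6 and PSMD14, falls outside the rule for named genes and was chosen after its values were seen.

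PSMD2, the ubiquitin-binding scaffold of the base, had the most reads of the 43 genes. It was at 315 and 319 CPM in the control, 271 and 276 under GPNA and 254 and 247 under BenSer. Each treated column was below both control columns, with differences of -0.21 (-0.25 to -0.18) and -0.34 (-0.37 to -0.31). The ubiquitin receptor PSMD4 differed from it, with 84.0 and 85.1 CPM in the control, 86.1 and 84.9 under GPNA and 84.8 and 86.6 under BenSer. The PSMD4 columns overlapped, and its differences were 0.02 (-0.046 to 0.078) and 0.02 (-0.040 to 0.078).

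The lid, the part of the cap that holds the deubiquitinase PSMD14, is encoded by 8 of the PSMD genes. All 8 lay below the control with each inhibitor (56.7% and 55.4% of all genes did), with medians of -0.08 and -0.22. PSMD11, which helps join lid to base and is known to be raised in pluripotent cells, was at 73.7 and 73.6 CPM in the control, 59.1 and 57.7 under GPNA and 61.6 and 63.1 under BenSer. The treated columns lay well under the control, at -0.33 (-0.40 to -0.26) and -0.24 (-0.30 to -0.17).

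PSMD12, another lid subunit, was at 89.5 and 92.5 CPM in the control, 77.3 and 78.1 under GPNA and 67.7 and 67.7 under BenSer. The 3 groups were separate, and the differences were -0.23 (-0.29 to -0.16) and -0.42 (-0.48 to -0.36). PSMD14 itself had 53.3 and 53.4 CPM in the control, 50.1 and 50.6 under GPNA and 47.2 and 45.2 under BenSer. Its differences of -0.08 (-0.16 to -0.0039) and -0.20 (-0.28 to -0.13) were near the lid medians.

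PSMD5, PSMD9 and PSMD10 encode chaperones that assemble the base and leave before the particle is complete. PSMD5 was at 25.1 and 24.5 CPM in the control, 25.3 and 22.1 under GPNA and 17.2 and 17.9 under BenSer. The GPNA columns lay on both sides of the control and the BenSer columns far under it. Its BenSer difference of -0.48 (-0.59 to -0.36), or 1.39-fold, was the most negative of the 43 genes, while the GPNA difference was -0.06 (-0.18 to 0.050). PSMD9 had 5.17 and 4.55 CPM in the control, 4.88 and 5.97 under GPNA and 5.07 and 4.66 under BenSer, and differences of 0.13 (-0.084 to 0.35) and 0.0017 (-0.21 to 0.21) with columns that overlapped. Its GPNA value ran from 0.0063 without column 2 of GPNA to 0.25 without column 1.

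PSMG1 to PSMG4, the assembly factors of the core, pair up to build the alpha ring, and their sum was 77.9 CPM in the control, 70.0 with GPNA (-0.15, -0.22 to -0.088) and 61.1 with BenSer (-0.35, -0.42 to -0.29). PSMG1 was at 31.5 and 31.2 CPM in the control, 26.7 and 27.0 under GPNA and 22.6 and 22.3 under BenSer. Its 3 groups were separate, at -0.22 (-0.32 to -0.11) and -0.47 (-0.57 to -0.36).

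PSMG3 had 18.2 and 19.2 CPM in the control, 16.2 and 17.8 under GPNA and 13.7 and 14.4 under BenSer. The difference was -0.13 with GPNA, with an interval that just includes 0 (-0.26 to 0.00081), and -0.39 with BenSer (-0.52 to -0.26). PSMG2 and PSMG4 had BenSer differences of -0.14 and -0.22, with intervals below 0, and GPNA differences of -0.06 (-0.19 to 0.065) and -0.14 (-0.33 to 0.040). By interval, 1 of the 4 genes lay below 0 with GPNA and all 4 with BenSer, beside 20.1% and 25.8% of all genes tested.

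The activators went several ways. PSME1 and PSME2 form the ring PA28, which is known to be induced by interferon and to serve antigen processing. PSME1 was at 59.1 and 64.0 CPM in the control, 69.1 and 68.2 under GPNA and 70.5 and 66.9 under BenSer. Every treated column was above both control columns, and the difference was 0.16 with each inhibitor (0.085 to 0.23 with GPNA and 0.089 to 0.22 with BenSer), or 1.11-fold. Without column 1 of the control it was 0.10 in each comparison. PSME2 stood at 50.9 and 50.5 CPM in the control, 49.1 and 51.5 under GPNA and 52.6 and 53.3 under BenSer, with differences of -0.01 (-0.090 to 0.069) and 0.06 (-0.014 to 0.14).

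PSME3, the nuclear activator PA28 gamma, was lower. It had 49.0 and 49.4 CPM in the control, 40.2 and 38.3 under GPNA and 39.8 and 38.6 under BenSer. The treated columns resembled each other and lay under the control, at -0.32 (-0.40 to -0.23) with GPNA and -0.32 (-0.40 to -0.24) with BenSer. PSME4, the activator PA200, had 54.9 and 53.6 CPM in the control, 52.1 and 53.9 under GPNA and 57.9 and 55.5 under BenSer, with differences of -0.03 (-0.11 to 0.043) and 0.06 (-0.011 to 0.13). With TMM scaling the GPNA differences of PSME2 and PSME4 were 0.03 and 0.0046, on the other side of 0, and their BenSer differences were each 0.11. The GPNA difference of PSME2 was 0.02 without column 1 of GPNA.

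PSMF1 encodes PI31, a protein named for its inhibition of the core in vitro. It was at 85.5 and 90.5 CPM in the control, 86.9 and 83.6 under GPNA and 94.0 and 92.9 under BenSer. The GPNA columns overlapped the control and the BenSer columns lay above it. The differences were -0.05 (-0.11 to 0.016) and 0.09 (0.028 to 0.14), and the BenSer value was 0.04 without column 1 of the control.

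**Figure D4:**
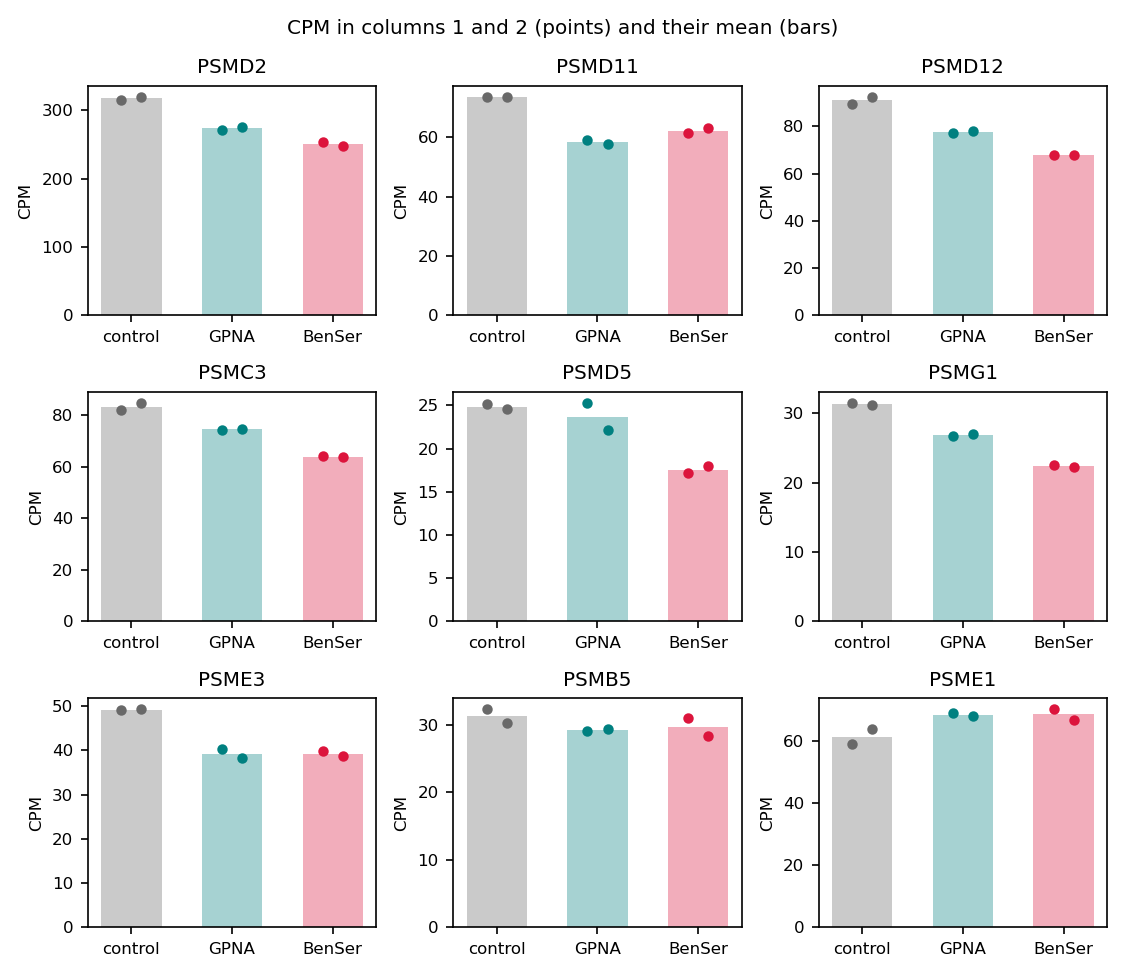
CPM of 9 proteasome genes in columns 1 and 2 of each group (points) with their mean (bars from 0). PSMD12 and PSMG1 step down from control to GPNA to BenSer, PSMD5 is low with BenSer only (17.2 and 17.9 CPM), PSMB5 shows overlapping columns, and PSME1 is above both control columns with each inhibitor.

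The immunoproteasome subunits replace the cutting subunits of the core in immune cells and after interferon. They were outside the naming rule and were low in these cells. PSMB8 averaged 5.25 CPM untreated, 7.10 under GPNA and 7.02 under BenSer, with differences of 0.37 (0.17 to 0.58) and 0.36 (0.16 to 0.56). PSMB9 had 1.94, 2.60 and 4.07 CPM, from 90, 133 and 261 reads, with differences of 0.29 (0.014 to 0.56) and 0.78 (0.53 to 1.03). PSMB10, at 1.34, 1.11 and 1.33 CPM, had intervals that include 0 with both.

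A further list held 12 genes for assembly factors and proteins that bind the proteasome. With GPNA, all 12 lay below the control (56.7% of all genes) and 7 had an interval below 0 (37.6% of all genes at 10 CPM or more). With BenSer, 10 lay below (55.4%), 8 with an interval below 0 (40.9%), and ZFAND5 had one above it (28.4%). UCHL5 and USP14, further deubiquitinases of the cap, were the lowest of the 12 with BenSer. UCHL5 went from 29.7 CPM in the control to 26.9 with GPNA and 21.6 with BenSer (-0.14, -0.24 to -0.032, and -0.45, -0.55 to -0.34), and USP14 from 26.1 to 22.6 and 19.9 CPM (-0.20, -0.32 to -0.091, and -0.38, -0.49 to -0.27). POMP, which closes assembly of the core, was at 27.6, 26.9 and 26.5 CPM, with intervals that include 0.

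The NRF1 arm raises proteasome transcription when activity is short. NFE2L1 itself was at 174 CPM in the control, 165 under GPNA and 229 under BenSer. The differences were -0.07 (-0.11 to -0.027) and 0.40 (0.36 to 0.44). DDI2, the protease that releases NFE2L1 from the endoplasmic reticulum membrane, was at 27.1, 24.1 and 33.2 CPM, with differences of -0.16 (-0.28 to -0.055) and 0.28 (0.19 to 0.38). Of the 5 genes in this list, 4 had an interval below 0 with GPNA and none above, beside 37.6% and 13.1% of all genes at 10 CPM or more. With BenSer, 3 of the 5 lay below the control, with a median of -0.05, and by interval VCP lay below and NFE2L1 and DDI2 above, beside 40.9% and 28.4% of all genes.

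The lists that follow share genes with it, as DDI2 is also a shuttle receptor and VCP a segregase. Shuttle receptors, which carry tagged proteins to the cap, had an interval below 0 with GPNA in 6 of 6 genes, and with BenSer 4 had one below 0 and DDI2 one above, against the same shares of all genes (37.6% with GPNA and 40.9% and 28.4% with BenSer). For the segregase VCP and its cofactors the interval lay below 0 in 5 of 6 genes with GPNA and 4 of 6 with BenSer, beside 37.6% and 40.9%. RPS27A, which encodes ubiquitin fused to a ribosomal protein, had 158, 152 and 123 CPM, and a BenSer difference of -0.35 (-0.40 to -0.31).

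Because these genes are known to share promoter elements, the 250 bases before the RefSeq start (GRCh38.p14) were searched on both strands in the 37 genes that had an entry. PSMA7, PSMB1, PSMB6, PSMB7, PSMD4 and PSMG3 were not matched. The core of the antioxidant response element, TGACNNNGC, was found in 10 of 37 (27.0%) and in 11.0% of 27305 promoters of the same length. The C/EBP-ATF element, searched as TGATGNAA, was in 0 of 37 and in 3.19% of promoters, and CCAAT, the box bound by NF-Y, was in 16 of 37 (43.2%) and in 33.0%. The motifs do not overlap in the stretches printed, and a match is a run of letters, not a site shown to be bound.

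The 10 genes with TGACNNNGC had a median difference of -0.05 with GPNA and -0.05 with BenSer, and the 27 without it had -0.10 and -0.18. For CCAAT the order changed between inhibitors. The 16 genes with it had medians of -0.10 with GPNA and -0.15 with BenSer, and the 21 without it had -0.06 and -0.18. With TGACNNNGC, the BenSer values ran from -0.48 (PSMD5) to 0.16 (PSME1), so both ends of the range of the 43 genes hold that motif. The promoters of the 3 genes most negative with BenSer and of the most positive one are shown from base -250 to -51 relative to the start, as an example of the same letters in genes with opposite differences. Each is written 5′ to 3′ on the strand of the gene, with matches to TGACNNNGC or CCAAT in capitals.
PSMD5, chr9:120842973-120843172, minus strand: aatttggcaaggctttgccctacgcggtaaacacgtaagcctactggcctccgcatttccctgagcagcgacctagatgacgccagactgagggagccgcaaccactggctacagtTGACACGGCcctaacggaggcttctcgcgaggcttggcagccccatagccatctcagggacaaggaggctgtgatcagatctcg
PSMG1, chr21:39183502-39183701, minus strand: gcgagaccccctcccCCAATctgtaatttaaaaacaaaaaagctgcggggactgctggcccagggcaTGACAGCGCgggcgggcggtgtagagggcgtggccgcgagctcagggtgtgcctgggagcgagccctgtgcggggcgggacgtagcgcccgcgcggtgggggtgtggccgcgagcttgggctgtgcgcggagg
PSMD12, chr17:67366628-67366827, minus strand: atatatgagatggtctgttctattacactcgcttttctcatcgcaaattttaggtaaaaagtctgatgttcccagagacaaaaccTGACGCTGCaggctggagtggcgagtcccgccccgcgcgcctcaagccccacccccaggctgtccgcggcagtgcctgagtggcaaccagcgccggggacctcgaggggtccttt
PSME1, chr14:24135944-24136143, plus strand: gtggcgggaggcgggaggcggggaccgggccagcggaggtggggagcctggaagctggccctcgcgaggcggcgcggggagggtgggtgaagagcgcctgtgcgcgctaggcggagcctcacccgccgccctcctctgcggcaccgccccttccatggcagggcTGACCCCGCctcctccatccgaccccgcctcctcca
The match begins 134 bases before the start in PSMD5, 183 in PSMG1, 165 in PSMD12 and 86 in PSME1. In the same order, the BenSer differences were -0.48, -0.47, -0.42 and 0.16.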

How the data were processed

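RNA of PC-3 cells was sequenced in 6 labelled libraries, 2 per group. Per the labels and methods, the authors prepared stranded total RNA, mapped paired reads to hg19 (GRCh37.p13) with TopHat2 and counted them per gene, and their processing notes name Bowtie2, HTSeq and DESeq. The deposited values are CPM, made by the authors from counts and library totals. Reads were recovered from them (100% whole within 0.01). The tables hold 4 columns per group, called replicates in the study's methods. Columns 1 and 2 match the labels, and the remaining 8 column entries were not used. The authors' log2 fold changes, p-values and false discovery rates were not used either.

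The 43 genes and all lists were chosen with earlier results of these data known. Roles, sums of subsets, levels per kb, the 10 CPM base and the separation of columns were added after the values were seen. Named genes were PSMB5 to PSMB7, PSME1 to PSME4 and the 4 most negative and 4 most positive genes per comparison.

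Mean CPM was compared as log2(CPM + 1) where the mean of the columns reached 5 reads in the control or the treated group. The planned count test was replaced because the files hold CPM and each group is 1 sample. limma 3.58.1, edgeR 4.0.16 and DESeq2 1.42.0 (R 4.3.3), adjusted at 0.05 by Benjamini-Hochberg, compared libraries as alternatives. Other alternatives were a pseudocount of 0.1, no filter or 50 reads, other scalings, single columns left out and a replicate block. Transcript lengths came from canonical GENCODE transcripts, with PSMB3 matched by symbol. Scripts (Python 3.11.15, scipy 1.17.1) were tested on simulated data. Some results of single genes are not reported here.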

Additional observations from a re-analysis of the deposited data

How the results depend on the processing

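The alternatives turned no count or median to the opposite direction, and 14 of the values that answer a comparison moved past their limit while 190 did not. Among the latter, the GPNA regulatory median of -0.07 lay over 1.5 times closer to 0 with TMM scaling (-0.03), DESeq2 size factors (-0.03) and scaling to the reads on listed genes (-0.04). With GPNA, the 1 gene at least 0.322 (log2) lower became 3 with a pseudocount of 0.1 and 0 with TMM scaling, DESeq2 size factors or scaling to the reads on listed genes, and single columns left out gave 0 to 2. DESeq2 on the libraries called 8 genes lower and 0 higher with GPNA (4.87% and 1.77% of all genes), beside 20 and 1 by counting interval, and 23 lower and 1 higher with BenSer (13.6% and 9.33%). These tests and the limma tests below take the columns of a group as replicates, so their adjusted p-values cover little beyond counting error and compare libraries, not treatments. With BenSer, the 2 genes with an interval above 0 became 5 with TMM scaling or DESeq2 size factors and 1 to 3 with single columns left out, the 1 being without column 1 of the control. The causes were not tested. A filter of 50 reads left out PSMA2. Leaving out PSMA1, PSMA2, PSMA6 and PSMD9, which share exons with read-through genes and were dropped after the data were seen, gave core medians of -0.13 with GPNA and -0.14 with BenSer. Replicate numbers do not pair the samples: deviations of same-numbered columns correlated at 0.013 to 0.035 over 10618 genes. With the replicate block, limma called 16 genes lower and 1 higher with GPNA (2251 and 925 of all 18828 genes) and 30 lower and 2 higher with BenSer (4137 and 2962 of 18976), against 16 and 1 (12.6% and 5.24% of all genes) and 28 and 2 (20.9% and 15.0%) without it; the block moved the core medians to -0.12 and -0.16. GPNA values of PSMB5, PSMB6, PSMD4 and PSME4 and the BenSer values of PSMB5 and PSME4, whose intervals include 0, moved by over 1.5 times with single columns left out. Depth limits the 5 genes under 10 CPM most, PSMA2 with 62 to 89 reads in particular.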
